A study of Mus musculus with 9 samples.

Results

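The array used for these cultured mouse cortical neurons carried strand-specific entries for transcripts of ultraconserved segments, here called by the array's own names (uc.1 to uc.483, each with a suffix + or -). The members were the non-control entries whose name starts with uc., and there were 962 of them among 59709 transcripts on the array. They formed 481 segments, each with 1 entry for either strand. The cortical neurons came from Swiss albino mouse embryos at day 15 of gestation and were harvested on Day 2, Day 4, Day 6 or Day 8 of culture. Other cultures were taken on Day 6, kept for 0, 2, 4, 6 or 8 hr without oxygen and glucose (oxygen-glucose deprivation, OGD) and then returned for 24 hr to a regular incubator in medium without the B27 supplement. The cultures for 0 hr OGD went through the same handling without the deprivation, so all 5 OGD arrays share the change of medium. There was 1 array for each of the 9 conditions, and the methods describe RNA pooled from separate experiments for all arrays but those of 6 and 8 hr OGD.

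Ultraconserved segments are stretches of the genome that are identical between human, mouse and rat. Many lie in or beside genes for transcription factors and RNA-binding proteins, some act as enhancers in the embryonic nervous system, and many are transcribed from one or both strands into RNAs with no known protein product. Such transcripts were first catalogued in human tissues and tumours, where their levels differ between tissues. The comparison over days asks which of them change as neurons mature, and the comparison over hours of OGD asks which change after an ischaemia-like injury.

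Signal is given as quantile-normalized log2 intensity, and SLR (signal log ratio) is the log2 difference between 2 arrays, so that an SLR of 1 is a 2-fold difference. The ± beside an SLR is the scanner software's modelled error of the 2 spots combined, and it does not cover differences between cultures. With 1 array per condition there was no replicate and no test was run, so each comparison is between arrays. Brightness was not compared between entries, since each entry binds its own target with its own efficiency. Which strand of the mouse genome a suffix denotes is not given in the sources used here. No member spot was saturated or marked as an outlier on the 9 arrays.

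The arrays differed in background, and this bears on each count of detected members. On Day 4, 52.6% of the negative control spots were themselves well above background, against between 0% at 8 hr OGD and 9.40% at 0 hr OGD on the other arrays. Detection on Day 4 is therefore given, but strand classes drawn over the 8 other arrays leave it out. Rules that ask for detection on all 9 arrays include it. Day 2 and Day 4 were read in one scan and the other 7 arrays in another, so differences of Day 2 or Day 4 from the other arrays cannot be told apart from differences between scans. Neuronal and glial marker genes were not analysed here.

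Fewer of the ultraconserved segment transcripts than of all transcripts were well above background on each array. On Day 2, 231 of the 962 members (24.0%) were detected, against 44.0% of all transcripts. Day 4 gave 416 members (43.2%) against 71.6%, Day 6 gave 229 (23.8%) against 38.9%, and Day 8 gave 250 (26.0%) against 42.3%. In the OGD series the number was 300 (31.2%) at 0 hr against 51.4% of all transcripts, 284 (29.5%) at 2 hr against 45.6%, and 312 (32.4%) at 4 hr against 49.1%. At 6 hr it was 204 (21.2%) against 37.2%, and at 8 hr 189 (19.6%) against 33.1%. The member count thus moved with that of all transcripts and with the share of negative control spots detected, whose part in the counts was not tested. Detection was also set at the 95th percentile of each array's own negative control spots. Between 239 and 278 members (24.8% to 28.9%) were then detected on the arrays other than Day 4. The share of all transcripts on those arrays was between 41.8% and 46.0%. On Day 4 it was 106 of the 962 members against 29.1% of all transcripts, for both the lowest of the 9 arrays. Among the strand-specific entries for exons of long intergenic non-coding RNAs (lincRNAs), which share the design with + and - entries, 40.4% were well above background on Day 2 and 30.9% at 8 hr OGD, higher shares than for the members on both arrays.

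**Figure D1:**
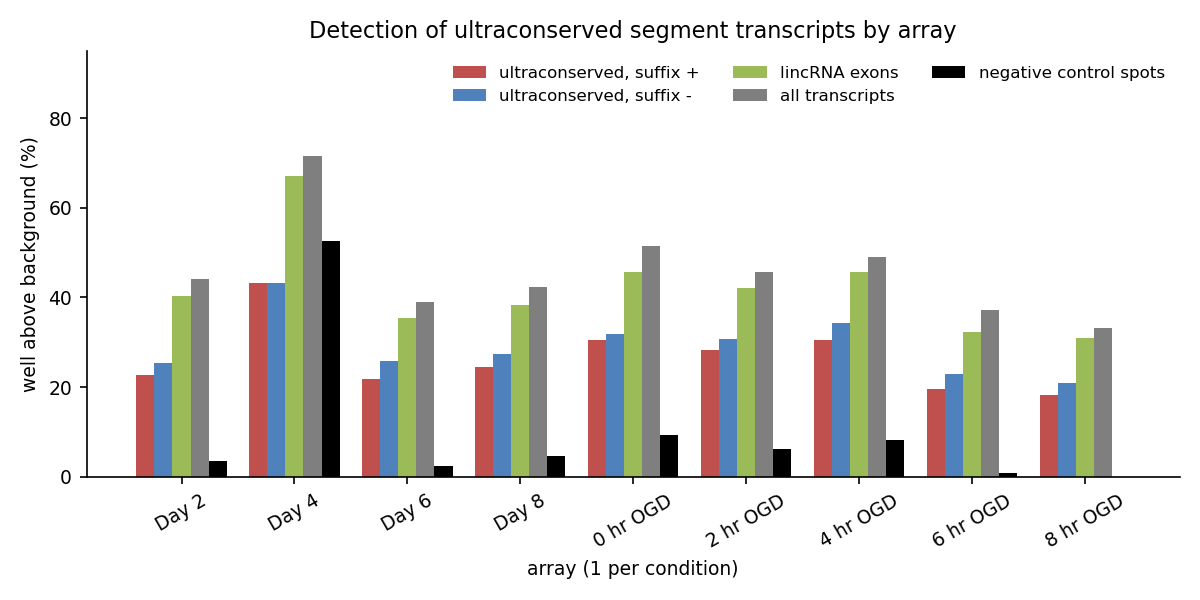
Share of entries well above background (%, y axis) on each of the 9 arrays (x axis), for members with suffix + and with suffix -, lincRNA exon entries, all transcripts and negative control spots. Members were detected less often than all transcripts on every array, and 52.6% of negative control spots were called on Day 4.

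The members divided into a core detected throughout and a large undetected share. On all 9 arrays 152 members (15.8%) were well above background, 68 with suffix + and 84 with suffix -, against 29.2% of all transcripts. On none of the 9 arrays was a signal called for 458 members (47.6%, against 22.3% of all transcripts), and 110 more were called on Day 4 alone (11.4% against 16.0%). On at least 1 of the 8 arrays other than Day 4, 394 members were detected (41.0% against 61.7%). Slightly more - than + members were detected on each of these 8 arrays, for example 122 against 109 on Day 2, 165 against 147 at 4 hr OGD and 101 against 88 at 8 hr OGD, while Day 4 had 208 of each.

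Most segments with any signal called had it called for 1 strand alone. A strand that was not called may have a less sensitive entry, so a call from 1 strand does not show that the other is not transcribed. Over the 8 arrays other than Day 4, 303 of the 481 segments had at least 1 strand detected, and for 212 of these (70.0%) the opposite strand was never called. The + strand alone was detected for 103 segments and the - strand alone for 109. Both strands were detected for 91 segments, of which 81 never had each strand alone on different arrays, and 10 had the + strand alone on one array and the - strand alone on another. These 10 were uc.121, uc.153, uc.166, uc.183, uc.240, uc.264, uc.314, uc.324, uc.346 and uc.425. Of the 1728 lincRNA exons with both a + and a - entry, 1397 had at least 1 strand detected, and 58.6% of those had 1 strand alone. Detection from 1 strand alone was thus also the more frequent state for lincRNA exons, at a lower share, and the difference in share was not tested.

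Array by array, both strands were detected for 39 segments on Day 2, 34 on Day 6, 42 on Day 8, and 58, 49, 62, 28 and 23 segments at 0, 2, 4, 6 and 8 hr OGD. As a share of the segments with any strand detected on these 8 arrays, both strands made up between 13.9% at 8 hr OGD and 24.8% at 4 hr OGD, and on Day 4 the share was 35.1%. The corresponding share for lincRNA exons lay between 17.9% at 8 hr OGD and 29.6% on Day 2, with 55.3% on Day 4. With the negative-control threshold the share of segments with both strands lay between 16.0% at 8 hr OGD and 24.1% at 4 hr OGD, with Day 4 left out. The fewer paired strands at 6 and 8 hr OGD came with fewer transcripts of all kinds called well above background on those arrays. This depended on the rule. With the negative-control threshold 6 hr had 40 paired segments, as many as 0 hr, and 46.0% of all transcripts detected against 42.2% at 0 hr. At 8 hr it was 33 paired segments and 41.8%.

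**Figure D2:**
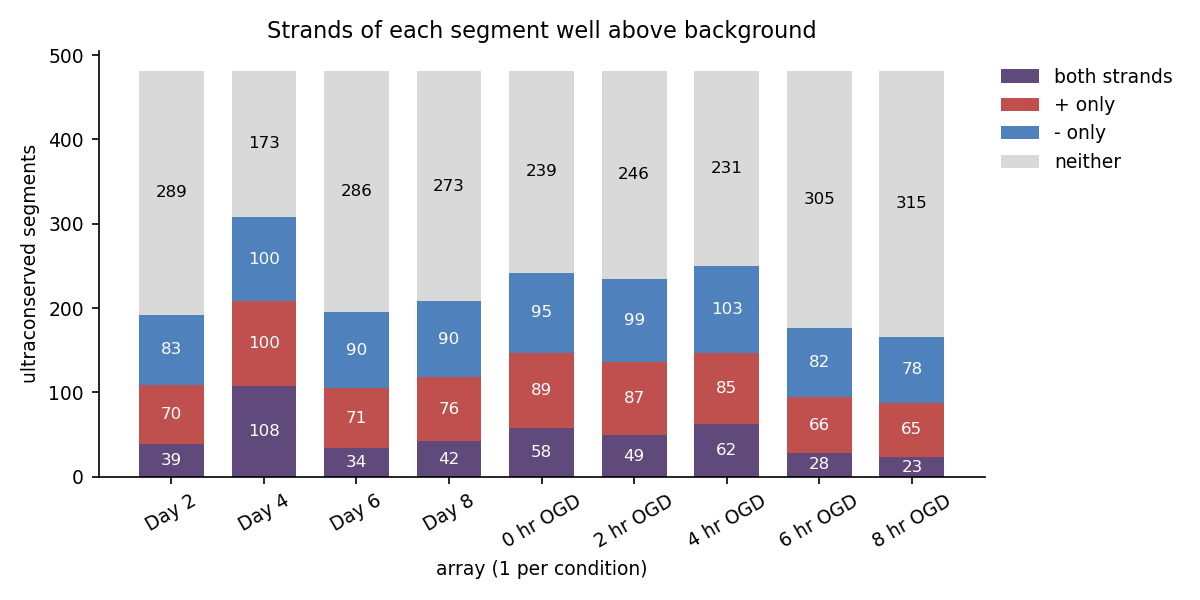
Number of the 481 ultraconserved segments (y axis) with both strands, the + strand alone, the - strand alone or neither strand well above background on each array (x axis). Segments with 1 strand called outnumbered those with both on every array, with 70 + alone, 83 - alone and 39 both on Day 2.

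In 72 segments 1 strand was detected on all 9 arrays while the other was called on none of the 8 arrays other than Day 4, 32 with the + strand and 40 with the - strand detected. Of these, the 8 whose detected strand stayed farthest above the negative controls are described, a choice of well-measured entries that depends on how brightly each entry binds and gives no order of abundance. They were uc.84-, uc.162-, uc.465-, uc.427+, uc.204-, uc.30+, uc.335+ and uc.271+. The margin of uc.84- was at least 10.45 log2 units above the 95th percentile of the negative spots on each array, that of uc.162- 8.26 and that of uc.465- 7.25. For the other 5 it lay between 2.57 for uc.271+ and 3.17 for uc.427+.

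The uc.84- signal on Days 2, 4, 6 and 8 was 16.94, 16.85, 17.01 and 16.76, and at 0, 2, 4, 6 and 8 hr OGD it was 16.33, 16.94, 16.42, 16.48 and 16.83. No SLR of uc.84- against Day 2 or 0 hr OGD passed 1, and the 0 hr OGD array was the lowest. With each array scaled to its 75th percentile its SLR was -0.98 on Day 4 against Day 2, 0.92, 0.88 and 0.97 at 2, 6 and 8 hr against 0 hr, and -1.23 for 0 hr against Day 6 in place of -0.69. Its opposite strand, uc.84+, stayed between 1.81 and 2.64 on the 9 arrays and was never well above background.

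The uc.162- signal was 14.65, 14.59, 12.52 and 14.82 on Days 2, 4, 6 and 8, and 14.48, 14.93, 14.65, 14.77 and 14.93 over the 5 OGD arrays in order of hours. Day 6 alone stood apart, with an SLR of -2.14 ± 0.20 against Day 2, while the 0 hr OGD array, also from Day 6 cultures, was 1.97 ± 0.20 above it. The other strand, uc.162+, stayed between 1.81 and 3.25 and was not called on any array.

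The uc.465- transcript measured 13.08, 13.68, 13.17 and 13.74 on Days 2 to 8 and 14.17, 13.59, 13.71, 13.50 and 13.54 at 0, 2, 4, 6 and 8 hr OGD. It was highest on the 0 hr OGD array, and each of the 4 deprived arrays was below that array by an SLR between -0.46 and -0.67 (± 0.20), past the modelled error but short of the SLR threshold of 1. With scaling to the 75th percentile the SLR of uc.465- was -0.62, -0.31, -0.11 and -0.51 at 2, 4, 6 and 8 hr, so that the 6 hr array was then within the modelled error.

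The uc.30+ signal was 9.12, 9.31, 10.52 and 10.04 over the days and 9.75, 10.42, 10.86, 10.33 and 10.20 over the hours of OGD. Its SLR passed 1 on Day 6 against Day 2 (1.40 ± 0.20) but not on Day 8 (0.92 ± 0.20). Among the deprived arrays it was highest at 4 hr, with an SLR of 1.11 ± 0.20 against 0 hr. With scaling to the 75th percentile these calls changed, since the SLR of uc.30+ was then 1.31 on Day 8 and 0.83 at 4 hr. The uc.271+ signal lay between 8.35 on Day 6 and 9.76 at 8 hr OGD. No steady course over either series was seen for uc.271+.

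Few members differed by more than 2-fold between Day 2 and Day 6 or Day 8. Of 195 members well above background on both Day 2 and Day 6, 12 were higher on Day 6 (6.15%, against 5.70% of all transcripts tested the same way) and 6 were lower (3.08% against 4.14%). On Day 8 against Day 2, 7 of 197 were higher (3.55% against 5.52%) and 6 were lower (3.05% against 5.00%). The median SLR of the members was 0.05 on Day 6 and -0.03 on Day 8, beside 0.08 and 0.01 for all transcripts. These shares lie close to those of all transcripts. Scaled to the 75th percentile, 19 members were higher (9.74% against 10.4%) and 3 lower (1.54% against 2.91%) on Day 6. On Day 4, 9 of 219 were higher (4.11% against 12.1%) and 74 were lower (33.8% against 21.8%), with a median SLR of -0.75 beside -0.36. That array's high background moves with this result, and its part was not tested: with detection by negative controls, 15 of 102 members were lower on Day 4 (14.7% against 8.17%). Between Day 6 and Day 8, which were read in the same scan, 8 of 211 members were higher on Day 8 (3.79% against 2.01%) and 4 were lower (1.90% against 1.11%).

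**Figure D3:**
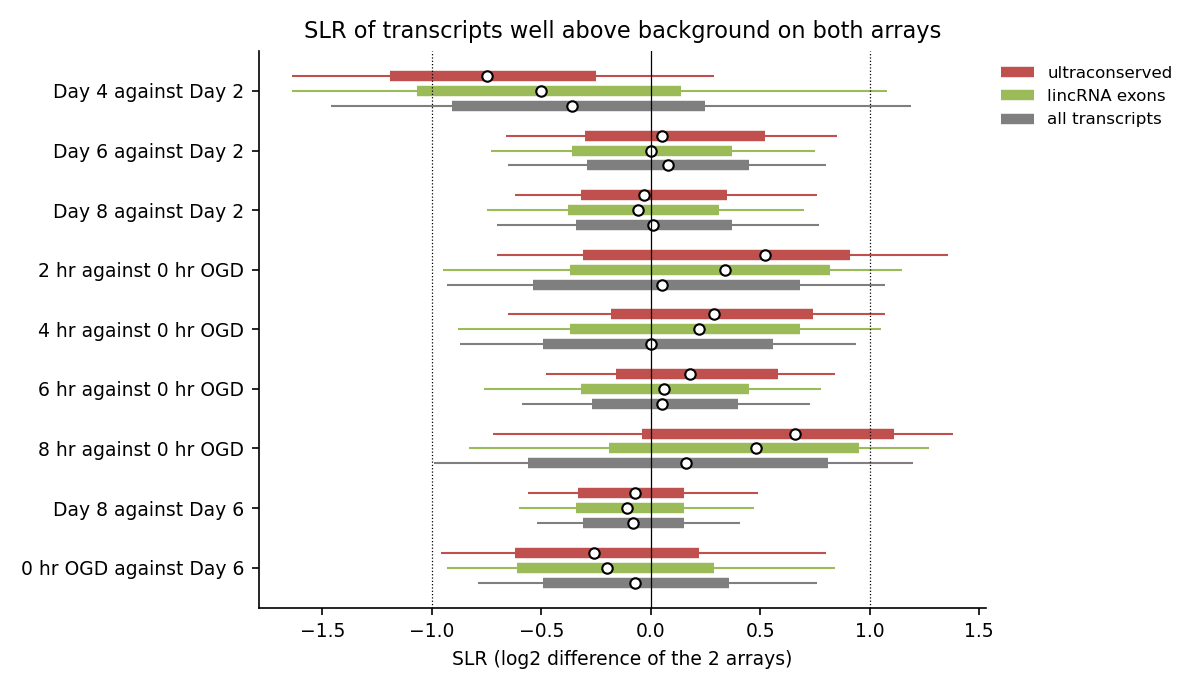
SLR (log2, x axis) for each of the 9 pairs of arrays (y axis), for members, lincRNA exon entries and all transcripts well above background on both arrays. Circles mark the median, thick bars the quartiles, thin lines the 10th to 90th percentile, and dotted lines an SLR of 1 either way. The member median is 0.66 at 8 hr against 0 hr OGD beside 0.16 for all transcripts, and near 0 for Day 6 and Day 8 against Day 2.

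Over both Day 6 and Day 8, 4 of the 187 members detected on Days 2, 6 and 8 were higher than Day 2 by more than 2-fold, a rule met by 2.81% of all transcripts, and 3 were lower, a rule met by 2.48%. The higher ones were uc.258+, uc.258-, uc.335+ and uc.195+. The lower ones were uc.343-, uc.87- and uc.340-.

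Segment uc.258 was the only one with both strands among them. The uc.258+ signal was 7.15, 7.03, 9.02 and 8.39 on Days 2, 4, 6 and 8, giving an SLR of 1.86 ± 0.21 on Day 6 and 1.24 ± 0.21 on Day 8, the latter 0.95 with normexp. The uc.258- signal was 7.67, 6.83, 9.10 and 9.09 on the same days, with an SLR of 1.43 ± 0.21 on Day 6 and 1.42 ± 0.21 on Day 8. Both strands were thus low on Days 2 and 4 and high on Days 6 and 8, the split that also separates the scans.

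In the OGD series uc.258+ measured 8.30 at 0 hr and 8.95, 9.14, 9.24 and 9.75 at 2, 4, 6 and 8 hr, and uc.258- measured 8.61 at 0 hr and 9.49, 9.74, 9.43 and 9.91 at the same hours. Each deprived array was above the 0 hr array for both strands, and at 8 hr the SLR was 1.45 ± 0.20 for uc.258+ and 1.29 ± 0.20 for uc.258-, the latter 0.85 with scaling to the 75th percentile. All 4 deprived arrays also lay above Day 6 and Day 8 for uc.258-, with a gap of 0.33, but for uc.258+ the 2 hr array (8.95) lay below Day 6 (9.02). With scaling to the 75th percentile the gap of uc.258- was lost. Its SLR was then 0.40 at 2 hr and -0.44 for 0 hr against Day 6, so the 2 hr array lay below Day 6.

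The uc.335+ signal was 7.87 on Day 2 and 9.17, 9.40 and 9.29 on Days 4, 6 and 8, so that it was already higher on Day 4, in the same scan as Day 2 (SLR 1.30 ± 0.21, but 0.71 with scaling to the 75th percentile). It stayed between 8.99 and 9.32 from 0 to 6 hr OGD and was 7.99 at 8 hr, an SLR of -1.25 ± 0.21 against 0 hr. The 8 hr array was thus the lone low one of its series for uc.335+, near the Day 2 level. The uc.195+ signal was 6.24, 5.43, 7.70 and 7.38 over the days and 6.89, 7.46, 7.56, 7.77 and 7.87 at 0 to 8 hr OGD, with an SLR of 1.46 ± 0.22 on Day 6 and 1.14 ± 0.22 on Day 8 against Day 2, which with normexp were 0.88 and 0.65.

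Of the 3 members lower in older cultures, uc.343- measured 7.72 on Day 2 and 4.95, 5.31 and 4.58 on Days 4, 6 and 8, an SLR of -2.41 ± 0.27 on Day 6 and -3.13 ± 0.32 on Day 8. With normexp these were -1.29 and -1.47. In the OGD series uc.343- stayed between 4.20 and 5.02 and was not well above background at 6 and 8 hr. The uc.87- signal was 7.95 on Day 2 and 3.91, 5.60 and 5.22 on Days 4, 6 and 8, an SLR of -2.35 ± 0.25 on Day 6 and -2.73 ± 0.25 on Day 8, which with normexp were -1.60 and -1.66. For both, Day 2 was the highest of the 9 arrays, and Day 4, from the same scan, was already below it. After OGD uc.87- was 4.49 at 0 hr and 5.99, 5.51, 5.01 and 5.47 at 2, 4, 6 and 8 hr, with Day 6 (5.60) among the deprived arrays. Its SLR against 0 hr passed 1 at 2 hr (1.49 ± 0.27) and 4 hr (1.02 ± 0.28), but with normexp these were 0.53 and 0.33.

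The uc.340- signal was 15.00, 14.67, 13.81 and 13.37 on Days 2, 4, 6 and 8, lower at each later day, with an SLR of -1.63 ± 0.20 on Day 8. With scaling to the 75th percentile the SLR of uc.340- against Day 2 was -0.75 for Day 6, short of 2-fold. By that scaling the Day 4 array (-1.03) and the Day 8 array (-1.45) were past 2-fold, and Day 6 lay above Day 4. At 0 hr OGD the uc.340- signal was 12.64, the lowest of the 9 arrays. It was 13.71, 13.55 and 13.22 at 2, 4 and 6 hr. The 8 hr array stood apart with 15.12, an SLR of 2.48 ± 0.20 against 0 hr and near the Day 2 value.

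**Figure D4:**
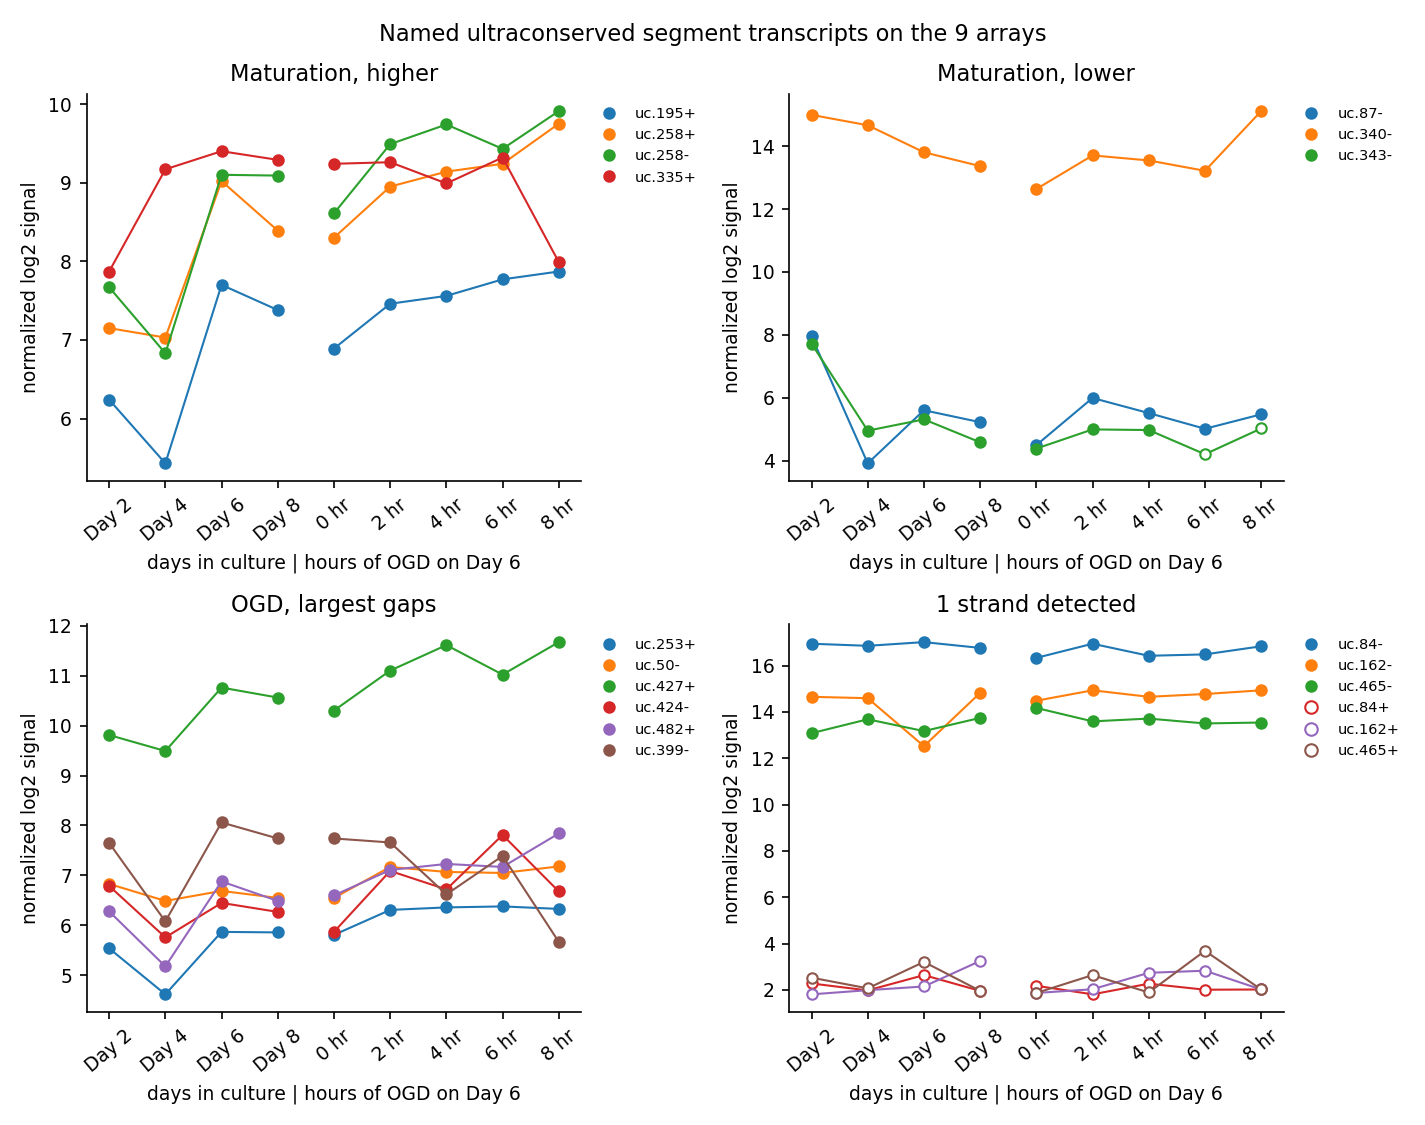
Normalized log2 signal (y axis) of named members on the 4 maturation arrays and the 5 OGD arrays (x axis), 1 point per array, filled where well above background and open where not. Both strands of uc.258 are higher on Days 6 and 8 than on Days 2 and 4, uc.340- is lowest at 0 hr OGD (12.64) and highest at 8 hr (15.12), and uc.84+, uc.162+ and uc.465+ have open points on every array.

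Other members passed from one side of the detection limit to the other, and for them only a bound can be given. Well above background on Day 6 and Day 8 but not on Day 2 were 24 members, a rule met by 2.21% of all transcripts. The reverse held for 26 members, a rule met by 6.05% of all transcripts. The bound compares the bright array with the higher of the dim spot's own signal and the lowest signal called on that array. That lowest signal is not the limit of every spot, since uc.252+ was not called on Day 2 at 4.19, above the lowest called (4.13). The bound holds for the measured signals alone, as it takes no account of their modelled error or of other ways to handle background. By this measure uc.256- was at least 12.4-fold higher on Day 8 than on Day 2, uc.167- at least 10.2-fold, uc.89- at least 3.43-fold and uc.252+ at least 2.76-fold.

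The uc.256- signal on Day 8 (7.76) also stood above that on Day 6 (4.71) and above the 5 OGD arrays, which lay between 4.38 and 5.51. For uc.167-, too, Day 8 (7.48) stood alone, with 5.19 on Day 6 and between 3.97 and 5.20 on the OGD arrays. With normexp the SLR of Day 8 against Day 6 was 1.55 for uc.256- and 1.16 for uc.167-, in place of 3.06 and 2.29. By contrast uc.252+ was alike on Day 6 (5.72), Day 8 (5.65) and the OGD arrays (5.19 to 5.93).

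In the other direction uc.373- was at least 16.5-fold lower on Day 8 than on Day 2, where it measured 8.38. It was not well above background on any other array. The uc.240+ transcript was likewise called on Day 2 alone (6.05) and was at least 3.28-fold lower on Day 8. For uc.150+ the bound was at least 4.91-fold lower and for uc.96+ at least 2.12-fold lower, but both were called again in the OGD series, uc.150+ on all 5 OGD arrays (4.46 to 5.84) and uc.96+ at 4 hr (4.58).

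After OGD the median of the members lay above that of all transcripts against 0 hr. At 2 hr, 54 of 246 members were more than 2-fold higher (22.0%, against 12.2% of all transcripts) and 10 were lower (4.07% against 8.29%). At 4 hr, 33 of 261 were higher (12.6% against 8.33%) and 10 were lower (3.83% against 7.09%). At 6 hr, 12 of 191 were higher (6.28% against 3.70%) and 7 were lower (3.66% against 4.00%). At 8 hr, 58 of 186 were higher (31.2% against 17.5%) and 4 were lower (2.15% against 9.86%). The median member SLR at 2, 4, 6 and 8 hr was 0.52, 0.29, 0.18 and 0.66, above the median of all transcripts by 0.47, 0.29, 0.13 and 0.50. With each array scaled to its 75th percentile in place of quantile normalization, 54 members were higher (22.0% against 10%) and 19 lower (7.72% against 14.8%) at 2 hr, and 48 were higher (25.8% against 12.7%) and 17 lower (9.14% against 18.4%) at 8 hr. The counts rest on how background is handled. With normexp, whose offset pulls dim values together, 3 members were higher (1.22% against 2.01%) and 4 lower (1.63% against 2.33%) at 2 hr, and 7 were higher (2.68% against 2.48%) and 2 lower (0.766% against 2.22%) at 4 hr. At 6 hr it gave 2 higher (1.05% against 0.746%) and 4 lower (2.09% against 1.92%), and at 8 hr 13 higher (6.99% against 6.06%) and 2 lower (1.08% against 4.13%). With normexp the higher share was thus below that of all transcripts at 2 hr and close to it later, while the member median still lay above theirs by 0.18, 0.11, 0.06 and 0.23. The 4 comparisons share the 0 hr array and are not independent of each other.

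The detection rule itself favours higher values here, since the lowest normalized signal called well above background was 3.68 at 0 hr and 5.06 at 8 hr. The counts were therefore repeated on members whose mean signal over both arrays lay at least 1 log2 unit above the higher of these limits. At 2 hr, 36 of 176 members were then higher (20.5% against 12.2%) and 8 were lower (4.55% against 9.95%). At 4 hr, 23 of 190 were higher (12.1% against 8.65%) and 8 were lower (4.21% against 8.15%). At 6 hr, 7 of 118 were higher (5.93% against 2.31%) and 5 were lower (4.24% against 5.14%). At 8 hr, 29 of 99 were higher (29.3% against 16.0%) and 3 were lower (3.03% against 13.0%). The member median was 0.54, 0.30, 0.17 and 0.62 at 2, 4, 6 and 8 hr, beside -0.05, -0.05, -0.01 and -0.08 for all transcripts.

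Part of this distance lay in the 0 hr array. The member median at 0 hr OGD against Day 6 was -0.26 beside -0.07 for all transcripts, and 20 of 220 were more than 2-fold lower (9.09% against 4.73%) while 12 were higher (5.45% against 4.85%). The balance of these counts depended on the detection rule. By the mean-signal rule 10 of 125 were higher (8.00% against 6.06%) and 7 were lower (5.60% against 3.66%), with a member median of -0.18, and with detection by negative controls 12 of 212 were higher (5.66% against 5.51%) and 11 lower (5.19% against 3.37%). With Day 6 as the reference and the mean-signal rule, the member median was 0.22, 0.20, -0.01 and 0.40 at 2, 4, 6 and 8 hr, beside 0.02, 0.03, -0.04 and 0.08 for all transcripts. With Day 8 as the reference it was 0.31, 0.22, 0.03 and 0.41, beside 0.09, 0.09, 0.07 and 0.09. The members thus stood above all transcripts at 2, 4 and 8 hr whichever undeprived array of the same scan was the reference. At 6 hr they stood above all transcripts against 0 hr, were nearly level with them against Day 6 and lay below them against Day 8. A set of 13 detected entries for reference genes, each repeated over many spots, had a median SLR of -0.53, -0.60, -0.29 and -0.49 at 2, 4, 6 and 8 hr against 0 hr and of 0.37 at 0 hr against Day 6, and the part of this in the shift was not tested.

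Since the spread of an SLR depends on an entry's signal, members and all transcripts were also set side by side within windows of signal on the array, which says nothing of abundance. At 8 hr against 0 hr, the member median was 0.58 between log2 6 and 7 (38 members), 1.00 between 7 and 8 (20 members), -0.37 between 8 and 10 (25 members) and 0.50 from 10 upward (16 members). The medians of all transcripts in the same windows were 0.00, -0.06, -0.17 and -0.11. The upward shift at 8 hr was therefore found in 3 of the 4 windows, and the members between 8 and 10 were shifted the other way. Between 8 and 10 the members also lay lower at 4 hr against 0 hr (-0.45 beside -0.17) and were level at 2 hr (-0.17 beside -0.18). Against Day 6 the member median at 8 hr lay above that of all transcripts in each of the 4 windows, between 0.15 and 0.52 beside 0.03 to 0.09. At 4 hr against Day 6 it was nearly level between 6 and 7 (0.06 beside 0.04). At 6 hr against Day 6 it lay below between 6 and 7 (-0.15 beside -0.05) and from 10 upward (-0.10 beside -0.04). The shift was thus not uniform over signal at every hour.

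The lincRNA exon entries moved in the same direction as the members at 2, 4 and 8 hr. Under the mean-signal rule their median SLR against 0 hr was 0.33, 0.24, 0.01 and 0.37 at 2, 4, 6 and 8 hr. Against Day 6 it was 0.17, 0.16, -0.09 and 0.33, beside the 0.22, 0.20, -0.01 and 0.40 of the members. The shift was thus seen in another class of strand-specific non-coding entries as well.

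The median was higher for + members than for - members at each hour, a difference that was not tested. Against 0 hr the median SLR of + members was 0.60, 0.46, 0.35 and 0.79 at 2, 4, 6 and 8 hr, and that of - members was 0.45, 0.17, 0.09 and 0.50. With Day 6 as the reference the + medians were 0.24, 0.34, 0.06 and 0.47 and the - medians 0.17, 0.12, -0.09 and 0.31. At 2, 4 and 8 hr both suffixes thus lay above all transcripts against either array. At 6 hr the - members lay below all transcripts with Day 6 as the reference (-0.09 beside -0.04) and with Day 8 (-0.08 beside 0.07). Entries for lincRNA exons with suffix + also had the higher median at 2, 4 and 8 hr against Day 6, with 0.22, 0.22 and 0.35 beside 0.12, 0.12 and 0.31. At 6 hr it was -0.08 beside -0.09.

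A stricter view asks which members had all 4 deprived arrays on one side of the 3 undeprived arrays of the same scan (Day 6, Day 8 and 0 hr OGD). Of the undeprived arrays, only 0 hr OGD shared the change of medium. Among the 157 members well above background on these 7 arrays, 17 were higher on each deprived array (10.8%, against 9.53% of all transcripts) and 1 was lower on each (0.637% against 9.22%). By the mean-signal rule 14 of 96 were higher (14.6% against 10.3%) and 1 was lower (1.04% against 11.1%). Higher members were thus about as frequent as among all transcripts, and lower members were few. Of the 17 higher ones, 11 had suffix + (15.3% of 72) and 6 suffix - (7.06% of 85), a difference that was not tested. For the lincRNA exons 11.1% were higher and 4.11% lower.

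The largest gap between the groups was that of uc.253+. It measured 5.87, 5.86 and 5.81 on Day 6, Day 8 and 0 hr OGD, and 6.31, 6.36, 6.38 and 6.33 at 2, 4, 6 and 8 hr. Both groups were tight and did not overlap, with a gap of 0.44, but no SLR against 0 hr was past 1 (0.51 to 0.57). With normexp the SLR of uc.253+ was 0.25, 0.29, 0.26 and 0.31 at 2, 4, 6 and 8 hr. The uc.50- transcript was similar, at 6.69, 6.55 and 6.55 without deprivation and 7.17, 7.07, 7.05 and 7.18 with it, a gap of 0.36.

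The uc.427+ transcript, one of the members above with 1 strand called, measured 10.76, 10.56 and 10.30 without deprivation and 11.10, 11.61, 11.02 and 11.67 at 2, 4, 6 and 8 hr. Its SLR against 0 hr was 1.30 ± 0.20 at 4 hr and 1.37 ± 0.20 at 8 hr, the latter 0.94 with scaling to the 75th percentile. With that scaling the SLR of uc.427+ was 0.33 at 2 hr and -0.55 for 0 hr against Day 6. The 2 hr array then lay below Day 6, so the groups overlapped. The uc.424- transcript measured 6.45, 6.27 and 5.87 without deprivation and 7.09, 6.72, 7.81 and 6.68 with it, and its 6 hr array was the highest (SLR 1.94 ± 0.21, and 1.12 with normexp). For uc.482+ the values were 6.88, 6.49 and 6.60 against 7.11, 7.23, 7.17 and 7.84, with the 8 hr array past 2-fold (SLR 1.24 ± 0.21, but 0.89 with normexp). The uc.204- transcript, with 1 strand called as well, measured 9.78, 9.35 and 9.03 against 10.04, 10.35, 9.90 and 10.50, a gap of 0.12, and its SLR against 0 hr ranged from 0.87 to 1.47 (± 0.20). With scaling to the 75th percentile the SLR of uc.204- was 0.52, 1.00, 1.02 and 1.00 at 2, 4, 6 and 8 hr. For 0 hr against Day 6 it was then -0.75, so the 2 hr array lay below Day 6 and the gap was lost.

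The lone member lower on all 4 deprived arrays was uc.399-. Scaling to the 75th percentile gave 3 such members, and 12 higher on all 4 in place of 17. The shares of all transcripts under that scaling are not given here, so these counts are not read against them. On Day 6, Day 8 and 0 hr OGD uc.399- measured 8.06, 7.74 and 7.74, and at 2, 4, 6 and 8 hr 7.66, 6.62, 7.39 and 5.67. The gap was 0.08, since the 2 hr array lay just below the undeprived ones, while at 8 hr the SLR was -2.06 ± 0.28 (-1.27 with normexp). Its course did not follow the hours in order, the 6 hr array being above the 4 hr array.

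Passing out of detection was frequent at 8 hr OGD, at a lower share for the members than for all transcripts. Of the members, 114 (11.9%) were well above background at 0 hr and not at 8 hr, against 18.9% of all transcripts. The size of the bound is given for members alone, with no share of all transcripts beside it. Only 22 of the 114 gave a bound above 1-fold and 2 a bound above 2-fold, because the lowest called signal was higher on the 8 hr array. These were uc.196+, at least 3.0-fold lower, and uc.436-, at least 2.89-fold lower. The uc.196+ signal was 6.64 at 0 hr and 4.80, 4.82, 4.71 and 4.33 at 2 to 8 hr, and it had been 5.46 on Day 6, so the 0 hr array was its highest. The uc.436- signal stayed between 5.84 and 6.59 on Day 6, Day 8 and from 0 to 6 hr OGD and was 3.23 at 8 hr. The next largest bounds were at least 1.75-fold lower for uc.193-, which was 5.86 at 0 hr and still called at 6 hr (5.98), and at least 1.71-fold lower for uc.23-, which was 5.83 at 0 hr, its highest, and 4.25 at 2 hr.

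Entering detection at 8 hr was rare, with 3 members (0.312%) beside 0.682% of all transcripts. They were uc.39- (at least 2.77-fold higher), uc.332+ (at least 2.62-fold) and uc.99+ (at least 2.61-fold). Of these, uc.39- (5.15 at 8 hr) had also been called on Day 4 (2.47), at 2 hr (4.27) and at 4 hr OGD (3.95). The signals of uc.332+ and uc.99+ at 8 hr were 5.07 and 5.06, at the limit of detection of that array, and neither was called on any other array.

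The strands of a segment could be compared for change where both were detected. At 2 hr against 0 hr OGD 40 segments had both strands on both arrays, and the 2 SLR had the same sign in 25. At 4 hr it was 25 of 46, at 6 hr 16 of 26 and at 8 hr 16 of 22. Against Day 2 the sign was shared in 30 of 37 segments on Day 4, 11 of 27 on Day 6 and 17 of 29 on Day 8. It was shared in 10 of 27 for Day 8 against Day 6 and in 24 of 32 for 0 hr OGD against Day 6. A shift common to all members also gives shared signs, so nothing particular to a pair of strands is read from these counts. Pearson's r between the 2 strands, across segments measured on the same 2 arrays, was 0.06, 0.15, 0.09 and 0.35 at 2, 4, 6 and 8 hr OGD. It was 0.25, 0.27 and 0.40 on Days 4, 6 and 8 against Day 2, -0.33 for Day 8 against Day 6 and 0.11 for 0 hr OGD against Day 6, all given as a description. The typical distance between the strands' SLR was 0.78 at 2 hr and 0.52 at 8 hr (median absolute difference). Both strands were past 2-fold upward in 5 segments at 8 hr and in 1 each at 2 and 6 hr, and strands past 2-fold in opposite directions were seen once in the OGD comparisons, at 6 hr.

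**Figure D5:**
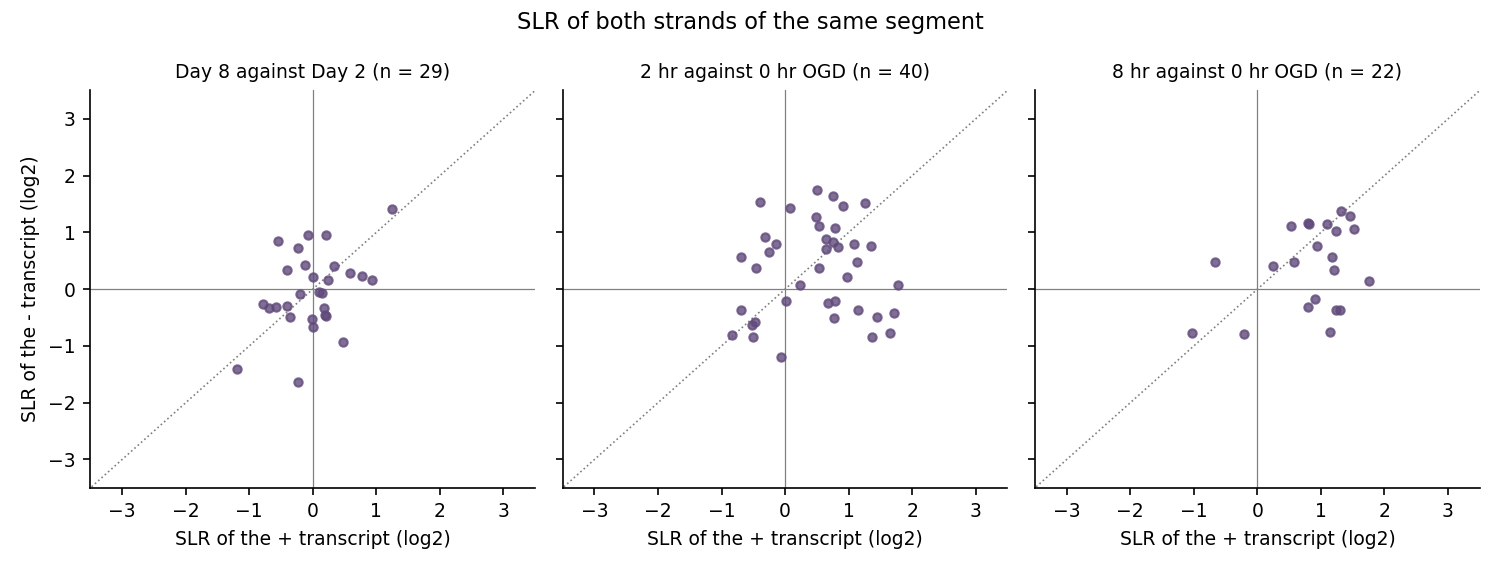
SLR of the - transcript (log2, y axis) against SLR of the + transcript (log2, x axis) for segments with both strands well above background on both arrays, 1 point per segment. The dotted line marks equal SLR. Points spread over all quadrants at 2 hr OGD (same sign in 25 of 40) and lie mainly in the upper right at 8 hr (same sign in 16 of 22).

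Both strands were well above background on all 9 arrays for 17 segments. Their strand balance, taken as the + signal minus the - signal on each array, was followed over the arrays. Its absolute value has no meaning across entries, and its change rests on the handling of background where a strand is dim. The range of this balance was between 0.89 (uc.75) and 3.39 (uc.419). The 6 widest were uc.419, uc.371, uc.48, uc.308, uc.268 and uc.325, and Day 4 was an extreme of the range for 5 of them. Without Day 4 the range was 2.27 for uc.419, 1.57 for uc.371, 1.12 for uc.48, 2.44 for uc.308, 1.90 for uc.268 and 1.94 for uc.325. The place of uc.48 depends on Day 4, since without that array it ranked below uc.246 (1.90), uc.293 (1.52), uc.482 (1.47), uc.154 (1.24), uc.7 (1.19) and uc.228 (1.14).

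For uc.308 the + strand was 4.34 at 0 hr OGD and 5.99, 5.45, 5.04 and 5.56 at 2, 4, 6 and 8 hr, higher on each deprived array. The - strand was 9.23 at 0 hr and 8.45, 8.57, 8.33 and 8.86, lower on each. The SLR at 2 hr was 1.65 ± 0.29 for uc.308+ and -0.78 ± 0.20 for uc.308-, with 0.53 for uc.308+ under normexp. Day 6 cultures had 5.72 and 8.34, so the strands of uc.308 at 0 hr differed from Day 6 in the opposite directions, by -1.38 ± 0.31 (-0.44 with normexp) and 0.90 ± 0.20.

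The uc.419 segment behaved likewise. Its + strand was 6.89 at 0 hr and 8.25, 7.43, 7.30 and 8.03 at 2, 4, 6 and 8 hr, and its - strand 6.47 at 0 hr and 5.62, 6.17, 6.09 and 5.73. The balance was 0.42 at 0 hr and between 1.21 and 2.64 with deprivation, while on Day 6 it was 2.69. The balance of uc.419 at 0 hr thus stood apart from Day 6, and the deprived arrays lay between them. With normexp the SLR at 0 hr against Day 6 was -0.53 for uc.419+ and 0.65 for uc.419-, in place of -0.87 and 1.41. At 2 hr against 0 hr it was 0.92 and -0.28, in place of 1.37 and -0.85.

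For uc.325 the + strand was 4.47 at 0 hr and 5.92, 5.21, 4.93 and 5.38 with deprivation, and the - strand 7.61 at 0 hr and 7.12, 7.61, 7.28 and 7.43. Only the + strand of uc.325 was past 2-fold, at 2 hr (SLR 1.45 ± 0.28, but 0.53 with normexp). For uc.371 the + strand was 6.96 at 0 hr and 7.80, 8.39, 7.79 and 8.17, with an SLR of 1.43 ± 0.21 at 4 hr, and all 4 lay above Day 6 (7.60) and Day 8 (7.26). Its - strand, uc.371-, was 14.67 at 0 hr and 15.41, 14.78, 14.85 and 15.00 with deprivation, and no deprived array lay above Day 6 (15.49).

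For uc.268 the + strand was 5.41 at 0 hr and 6.19, 5.55, 6.39 and 5.20 with deprivation, and the - strand 8.49 at 0 hr and 7.99, 7.77, 8.38 and 7.71. The strands of uc.268 parted at 2 hr, with an SLR of 0.77 ± 0.24 for uc.268+ and -0.50 ± 0.21 for uc.268-, with 0.32 for uc.268+ under normexp. At 6 hr uc.268+ was again higher (0.97 ± 0.23, but 0.54 with normexp), with uc.268- within its modelled error (-0.12 ± 0.20). At 4 and 8 hr uc.268+ was within its modelled error of 0 hr (0.14 ± 0.24 and -0.21 ± 0.34). At these hours uc.268- was lower (-0.72 ± 0.21 and -0.79 ± 0.21). For uc.48, whose + transcript has been studied in sensory and sympathetic ganglia of the rat, uc.48+ was 6.47 at 0 hr and 7.15, 6.76, 6.60 and 7.27 with deprivation, while uc.48- was 5.89 and then 5.66, 5.89, 5.98 and 5.57. No SLR of uc.48+ or uc.48- passed 1 in either series.

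A set of 7 segments studied elsewhere were looked up outside these rules, chosen for what is known of them and not for their values here.
The uc.475 segment lies in OGT, the gene of the O-GlcNAc transferase, and its transcript is known as induced by low oxygen in cancer cells. Here uc.475+ was well above background on all 9 arrays and uc.475- on none. It measured 5.68 at 0 hr OGD and 5.57, 5.70, 5.63 and 5.84 at 2, 4, 6 and 8 hr, with each SLR smaller than its modelled error (-0.11 ± 0.24, 0.02 ± 0.23, -0.05 ± 0.26 and 0.16 ± 0.27). All RNA was taken 24 hr after the deprivation ended.

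The uc.338 segment lies in PCBP2, a gene of a poly(C)-binding protein. The uc.338+ signal was between 5.53 and 6.63 on the 9 arrays, with no SLR past 1. The uc.338- signal was called on Day 2 (5.05), Day 4 (6.88), 0 hr (3.90) and 4 hr OGD (3.85). Transcripts of uc.160, uc.283 and uc.346 are known to be silenced by CpG island methylation in cancer cells. The strand of those transcripts was not matched to the entries here, so a call below need not concern the same transcript. Of these segments, uc.160- was called on all 9 arrays (5.22 to 6.90) and uc.160+ on none. Both strands of uc.283 were called on none, and uc.346+ was called on 2 arrays and uc.346- on 3. The uc.63 segment lies in XPO1, the nuclear exporter gene; uc.63- was called at 0 hr OGD alone and uc.63+ on no array. The uc.73+ transcript was called on 8 of 9 arrays, with 4.23 at 0 hr OGD and 5.61, 5.20, 5.43 and 5.36 at 2, 4, 6 and 8 hr, but Day 6 (5.38) lay among the deprived arrays.

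Transcript uc.64+, named here because the study lists it, was well above background on Day 4 (4.70), Day 8 (5.63) and 0 hr OGD (4.43) and on no other array. No SLR against Day 2 can be given beyond a bound, and uc.64- was called on no array.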

How the data were processed

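Total RNA depleted of rRNA was labelled with Cy3 and hybridised to 9 single-colour Arraystar mouse lncRNA arrays, 1 per condition. The authors deposited each array's scanner intensity values from Feature Extraction 11.0.1.1, with a signal corrected for background, the error modelled for it and quality flags, and a table of processed intensity values, quantile-normalized on a linear scale, that holds 301 of the 962 members.

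Control and outlier spots were left out, repeated spots averaged as log2, and arrays quantile-normalized together. A member was detected where the scanner software called it well above background. SLR needed detection on both arrays, and its threshold was 1. The number of arrays limits the precision. Steps were tested on simulated data. Alternatives were scaling to the 75th percentile, normalization within each series, the authors' table, normexp (limma 3.58.1, R 4.3.3, offset 50), detection by negative controls, and outliers kept. Python 3.11.15, numpy 2.4.6 and pandas 2.3.3 were used.

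Members named were up to 6 each way by mean SLR among those past 2-fold on both Days 6 and 8 (4 higher and 3 lower met this), up to 6 gaps each way after OGD (1 lower), the 6 widest strand balances, 8 transcripts with 1 strand called, the 4 largest bounds each way, and both strands of uc.64. Further members are named as chosen outside this rule. The members, lists and rules were chosen with earlier results of these data known. Sequences and genome positions of the segments were not analysed here.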

Additional observations from a re-analysis of the deposited data

How the results depend on the processing

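No paired analysis was possible because 1 array was run per condition. The mean-signal filter, the signal windows, other reference arrays and the check of medians were chosen after seeing the data. Keeping outlier spots, normalizing each series by itself and using the authors' processed values moved no count by more than 1.5 times. Normexp on the median pixel signal, whose offset pulls dim values together by construction, gave fewer members past 2-fold in each of 17 counts. These were 2 higher (0.913% against 5.59% of all transcripts) and 8 lower (3.65% against 2.38%) on Day 4, 6 higher on Day 6 (3.08% against 1.45%), and 4 higher (2.03% against 1.71%) and 3 lower (1.52% against 1.48%) on Day 8. Day 8 against Day 6 gave 4 higher (1.90% against 1.12%) and 1 lower (0.474% against 0.163%), and 0 hr OGD against Day 6 gave 4 higher (1.82% against 1.95%) and 4 lower (1.82% against 1.14%). After OGD, with shares given above, they were, higher and lower, 3 and 4 at 2 hr, 7 and 2 at 4 hr, 2 and 4 at 6 hr, and 13 and 2 at 8 hr. With normexp the member median still lay above that of all transcripts after OGD, by 0.18, 0.11, 0.06 and 0.23 at 2, 4, 6 and 8 hr. Scaling to the 75th percentile gave 19 higher (9.74% against 10.4% of all transcripts) and 3 lower (1.54% against 2.91%) on Day 6, and 12 higher on Day 8 (6.09% against 7.49%). After OGD it gave 19 lower at 2 hr (7.72% against 14.8%) and 17 lower at 8 hr (9.14% against 18.4%). It left 12 members higher and 3 lower on all deprived arrays, in place of 17 and 1, with no share of all transcripts given. That scaling moved the median of all transcripts by more than 0.1 on Day 4 (to -0.48), Day 6 (to 0.25) and Day 8 (to 0.14). Detection by negative controls gave 106 of the 962 members on Day 4, against 29.1% of all transcripts, and 9 segments with both strands. By that rule 15 members were lower on Day 4 (14.7% against 8.17%). After OGD it gave 34 higher at 2 hr (16.3% against 10.6%), 19 higher at 4 hr (8.72% against 7.32%) and 7 lower at 8 hr (3.52% against 11.2%). For 0 hr OGD against Day 6 it gave 11 lower (5.19% against 3.37%). The mean-signal filter gave 32 of 135 lower on Day 4 (23.7% against 13.2%), 7 of 118 higher at 6 hr (5.93% against 2.31%), 29 of 99 higher at 8 hr OGD (29.3% against 16.0%) and 7 of 125 lower for 0 hr OGD against Day 6 (5.60% against 3.66%). The cause was not tested where the alternative's own construction does not give it. Of 366 SLR values of named members, 114 moved by more than their modelled error with scaling to the 75th percentile and 133 with normexp. Of the 83 past 1, 14 were no longer past it with that scaling, while 22 others passed it, and 48 were no longer past it with normexp. Of the 366, 14 changed sign with scaling to the 75th percentile, 4 of them larger than their modelled error, and 16 with normexp, none of these larger than it. No value that changed sign was past 2-fold. Dim members are the least certain, since a fall below detection gives only a bound.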
